A study of Bursaphelenchus xylophilus with 12 samples.

Results

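The loci described here are the entries of the deposited expression table whose ID starts with XLOC and whose FPKM (fragments per kilobase of locus, scaled to the size of the library) was at least 1 in at least 3 of the 12 libraries. They number 215 of the 332 XLOC IDs in a table of 18036 IDs, and 13553 of the 17704 BXY IDs met the same rule. Adult pine wood nematodes (Bursaphelenchus xylophilus, strain NB-6), a parasite of pine trees, were exposed to EB, which is emamectin benzoate at a dose of 0.1 mg/L, or to only the adjuvant of that preparation, octylphenol polyoxyethylene-10 with n-butyl alcohol. The groups are EB24 and EC24 (24 h) and EB12 and EC12 (12 h), each with 3 libraries of 200 adults, at 25 °C, from worms raised on the fungus Botrytis cinerea. The sample titles name the adjuvant libraries EC where the treatment text has ON, so EC was read as the adjuvant by elimination. No source used here states that the replicates are independent cultures, and p-values therefore cover only the spread between these libraries.

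XLOC is the prefix that the Cufflinks programs give to loci assembled from mapped reads, although the labels do not name them, while BXY is the prefix of the gene models of the B. xylophilus genome. Loci found only by read assembly can be genes that an annotation missed, noncoding RNAs, or detached ends of known transcripts. Emamectin benzoate is an avermectin, a class of compounds that act on glutamate-gated chloride channels of nerve and muscle in nematodes. The table gives no coordinates, lengths, names or sequences for any ID. That the XLOC loci lie outside annotated genes was therefore not checked, their functions are not described, and their sequences are not shown.

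Over all 18036 IDs the FPKM summed to 916720 to 944595 in the 24 h libraries and to 824088 to 870950 in the 12 h libraries. Read totals are not known, so no counting interval is given. The 215 loci together held 0.642%, 0.686% and 0.640% of the summed FPKM in EB24, and 0.779%, 0.753% and 0.736% in EC24. They held 0.594%, 0.472% and 0.463% in EB12, and 0.460%, 0.522% and 0.533% in EC12. Within the 215 loci the first principal component of log2(FPKM + 1) held 61.2% of the variance and put the 6 libraries at 24 h on one side (-7.52 to -5.18) and the 6 at 12 h on the other (5.21 to 7.30). The effect of time cannot be told apart from that of a batch, since the titles of the 12 h libraries carry a group number, of unstated meaning, that those of the 24 h libraries lack.

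The levels of the XLOC loci were mostly low. Their median level, as a mean FPKM over the 12 libraries, was 3.14 (quartiles 1.16 and 9.20), against 21.1 (quartiles 5.76 and 57.9) for the BXY IDs that met the rule. Below a mean FPKM of 5 stood 132 of the 215 loci (61.4%), against 22.8% of BXY IDs. A mean of 50 to 200 was reached by 10 loci, and one of 200 or more by 6. An FPKM of at least 1 in every library was reached by 116 loci (54.0%) and by 85.0% of BXY IDs. No locus was at 0 in 6 or more libraries, and 20 loci (9.30%) were at 0 in at least 1 library, against 2.13% of BXY IDs.

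**Figure D1:**
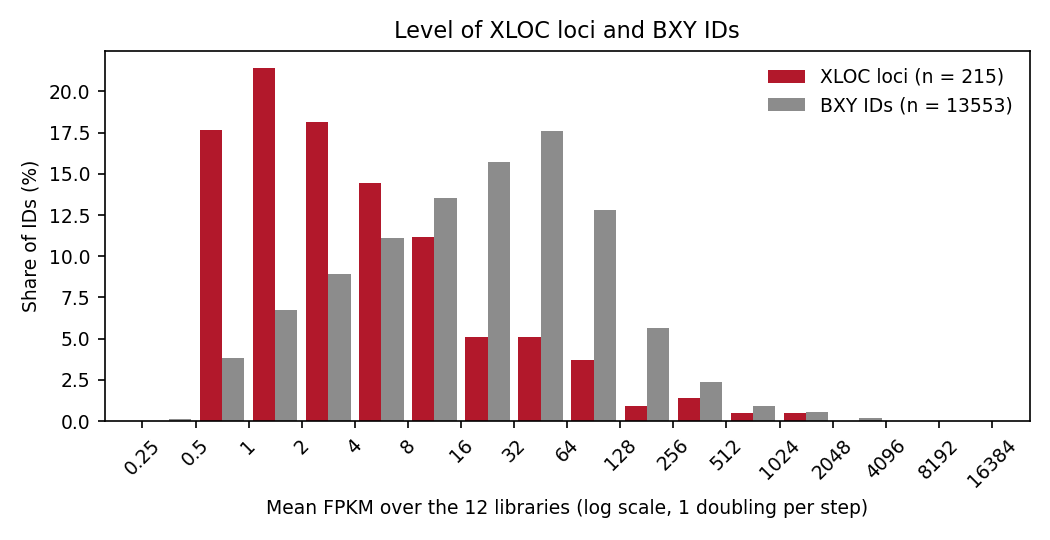
Share of 215 XLOC loci (red, left bar) and of 13553 BXY IDs (grey, right bar) by mean FPKM over the 12 libraries, on a log axis with 1 doubling per step. The largest share of XLOC loci, 21.4%, lies at a mean of 1 to 2, and the largest share of BXY IDs, 17.6%, at 32 to 64.

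The rule left 10 loci just inside it, with an FPKM of at least 1 in exactly 3 libraries and means of 0.502 (XLOC_013761) to 1.05 (XLOC_007644). Of the 117 XLOC IDs outside it, 17 reached 1 in 2 libraries, 21 in 1 library and 79 in none. The highest of these means was 0.845, for XLOC_004129, and their median mean was 0.261. The rule also lets in loci through the libraries where they are high: 28 of the 215 (13.0%) were at 1 or more in 24 h libraries only, against 2.00% of BXY IDs, and 5 loci (2.33%) in 12 h libraries only, against 0.804%.

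A few loci carried most of the signal. XLOC_007860 made up 21.6% of the summed mean level of the 215 loci and ranked 90th among all tested IDs, and the 6 most abundant loci made up 60.1%. XLOC_007860 stood at 1340, 1617 and 1337 FPKM in EB24, and at 2477, 2735 and 2644 FPKM in EC24. In EB12 it stood at 409, 246 and 355 FPKM, and in EC12 at 401, 253 and 314 FPKM. Every 24 h library was above every 12 h library, and every EC24 library was above every EB24 library.

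The pooled share depended on that locus. The 215 loci held 0.656% ± 0.026 of the summed FPKM in EB24 and 0.756% ± 0.021 in EC24 (SD, n = 3 each), a difference of -0.0999 percentage points. Every EB24 value was below every EC24 value (two-sided exact permutation p = 0.1, which 3 against 3 libraries cannot go below, and 0.133 adjusted over 4 comparisons). Without XLOC_007860 the share was 0.501% ± 0.009 in EB24 and 0.477% ± 0.031 in EC24, so that the direction turned round (exact permutation p = 0.4, n = 3 each). The share was 0.656% in EB24 against 0.510% in EB12, and 0.756% in EC24 against 0.505% in EC12, with differences of 0.147 and 0.251 percentage points (exact permutation p = 0.1 each, the smallest possible). Without XLOC_007860 these differences were 0.0306 and 0.0111 percentage points (exact permutation p = 0.4 and 0.8). The share was 0.510% ± 0.073 in EB12 and 0.505% ± 0.039 in EC12 (exact permutation p = 0.8, n = 3 each), and this difference changed sign without EB12 replicate 1 (-0.0376 percentage points) or EC12 replicate 1 (-0.0180 percentage points).

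The next most abundant loci had other profiles. XLOC_015971 stood at 708, 658 and 685 FPKM in EB24 and at 624, 577 and 587 FPKM in EC24. It stood at 1318, 996 and 894 FPKM in EB12, and at 392, 1280 and 1414 FPKM in EC12. EC12 replicate 1 was the lowest library for this locus and the other 5 libraries at 12 h were above all 24 h libraries. Its log2 differences over time, -0.63 in EB and -0.58 in EC, did not pass the test (limma adjusted p = 0.190 and 0.209). Without EC12 replicate 1 they were -0.63 and -1.17 and both passed (limma adjusted p = 0.00309 and 0.000115, over all alternatives 0.00309 to 0.379 and 0.000115 to 0.616).

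XLOC_009668 varied least among the 10 most abundant loci, with 426, 417 and 428 FPKM in EB24 and 536, 501 and 492 FPKM in EC24. It had 342, 475 and 418 FPKM in EB12, and 393, 383 and 404 FPKM in EC12. EC24 lay above EB24 in every library, but the log2 difference of -0.27 ± 0.11 (SE) did not pass the test (limma adjusted p = 0.118). In EC it rose by 0.37 log2 units (limma adjusted p = 0.0158), and by 0.04 after quantile normalization, which did not pass (limma adjusted p = 0.785, over all alternatives 0.00314 to 0.785). XLOC_008939 stood at 297, 307 and 317 FPKM in EB24, against 218, 226 and 227 FPKM in EC24, with no overlap. It stood at 287, 286 and 298 FPKM in EB12, and at 244, 298 and 303 FPKM in EC12. XLOC_008939 was higher in EB24 than in EC24 by 0.46 ± 0.09 log2 units (limma adjusted p = 0.00867), and by 0.37 after median ratio scaling, which did not pass (limma adjusted p = 0.0672, over all alternatives 4.42e-06 to 0.0672). XLOC_013002 is described with the changes in EB, XLOC_012139 and XLOC_001625 with the rises shared by both agents.

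The other abundant loci were XLOC_011561, XLOC_009507 and XLOC_009502. XLOC_011561 averaged 116 ± 0.684 FPKM in EB24 and 113 ± 4.58 FPKM in EC24, and 143 ± 40.1 in EB12 and 165 ± 29.3 in EC12 (SD, n = 3 each). It fell in EC by 0.53 log2 units (limma adjusted p = 0.0266), a call lost without any of EC24 replicates 1, 2 and 3 or EC12 replicates 2 and 3 (limma adjusted p of 0.0510 to 0.110). XLOC_009507 averaged 154.9 ± 16.3 FPKM in EB24 and 148 ± 32.9 in EC24, and 68.02 ± 7.51 in EB12 and 52.1 ± 10.3 in EC12 (SD, n = 3 each). It rose with time in EB and in EC, with log2 differences of 1.18 and 1.49 (limma adjusted p = 0.000377 and 4.51e-05). XLOC_009502 averaged 82.9 ± 6.95 FPKM in EB24, 91.3 ± 3.48 in EC24, 72.9 ± 14.0 in EB12 and 96.7 ± 34.3 in EC12, and passed no test of time or agent at 24 h.

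Over time, more XLOC loci rose than fell with either agent. The changes were tested for all 13768 IDs that met the rule on log2(FPKM + 1), with limma and Benjamini-Hochberg adjusted p under 0.05, and fold changes on that scale understate the change of low loci. In EB24 against EB12, 89 of the 215 loci rose (41.4%), 11 fell (5.12%) and 115 did not pass, where 30.3% of all tested IDs rose and 13.1% fell, 43.4% in all. In EC24 against EC12, 79 loci rose (36.7%), 23 fell (10.7%) and 113 did not pass, where 24.7% of all tested IDs rose and 25.9% fell, 50.5% in all. In bulk RNA of whole worms, fewer cells of a type and less RNA per cell cannot be told apart. The median log2 difference of the 215 loci was 0.44 in EB and 0.42 in EC, against 0.15 and 0.04 for all tested IDs. At least 2-fold on this scale, 53 loci rose and 8 fell in EB, and 41 rose and 10 fell in EC. The share of all tested IDs at this threshold was not taken, so these counts make no comparison. The 24 h and 12 h libraries did not overlap for 124 of the 215 loci in EB, with 107 higher and 17 lower at 24 h, where 56.8% of all tested IDs did not overlap, 37.6% higher and 19.2% lower. In EC they did not overlap for 123 loci, with 90 higher and 33 lower, where 60% of all tested IDs did not overlap, 29% higher and 31% lower.

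BXY IDs of like abundance were set beside these counts. Of BXY IDs weighted to the 5 abundance classes of the XLOC loci (a mean FPKM under 5, of 5 to 20, 20 to 50, 50 to 200 and 200 or more), 32.5% rose and 10.1% fell in EB, and 23.9% rose and 16.5% fell in EC. Their weighted median log2 differences were 0.29 in EB and 0.15 in EC. With classes of 1 doubling of the level the shares were 31.9% and 9.42% in EB, and 23.4% and 15.7% in EC. These are descriptions, and the difference between the kinds of ID was not tested. The rule itself favours a rise for the 28 loci (13.0%, against 2.00% of BXY IDs) at 1 or more in 24 h libraries only. They made up 20 of the 89 rises in EB and 18 of the 79 in EC, and no share was taken without them.

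The same shares were taken within each class, with the loci that met the rule only through 24 h libraries kept in. Below a mean of 5, 45 of 132 loci rose in EB (34.1%, against 32.9% of BXY IDs) and 43 rose in EC (32.6%, against 22.5%). At 5 to 20, 27 of 50 loci rose in EB (54.0%, against 35.3%) and 19 in EC (38%, against 25.6%). At 20 to 50, 10 of 17 loci rose in EB (58.8%, against 28.6%) and 11 in EC (64.7%, against 23.7%). In this last class 1 of 17 loci fell in each agent, against 15.9% of BXY IDs in EB and 35.8% in EC. The higher classes hold too few loci for a share. At 50 to 200, 5 of 10 loci rose and none fell in EB, and 3 rose and 4 fell in EC, and at 200 or more 2 of 6 rose and 1 fell in EB, and 3 rose and 1 fell in EC.

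**Figure D2:**
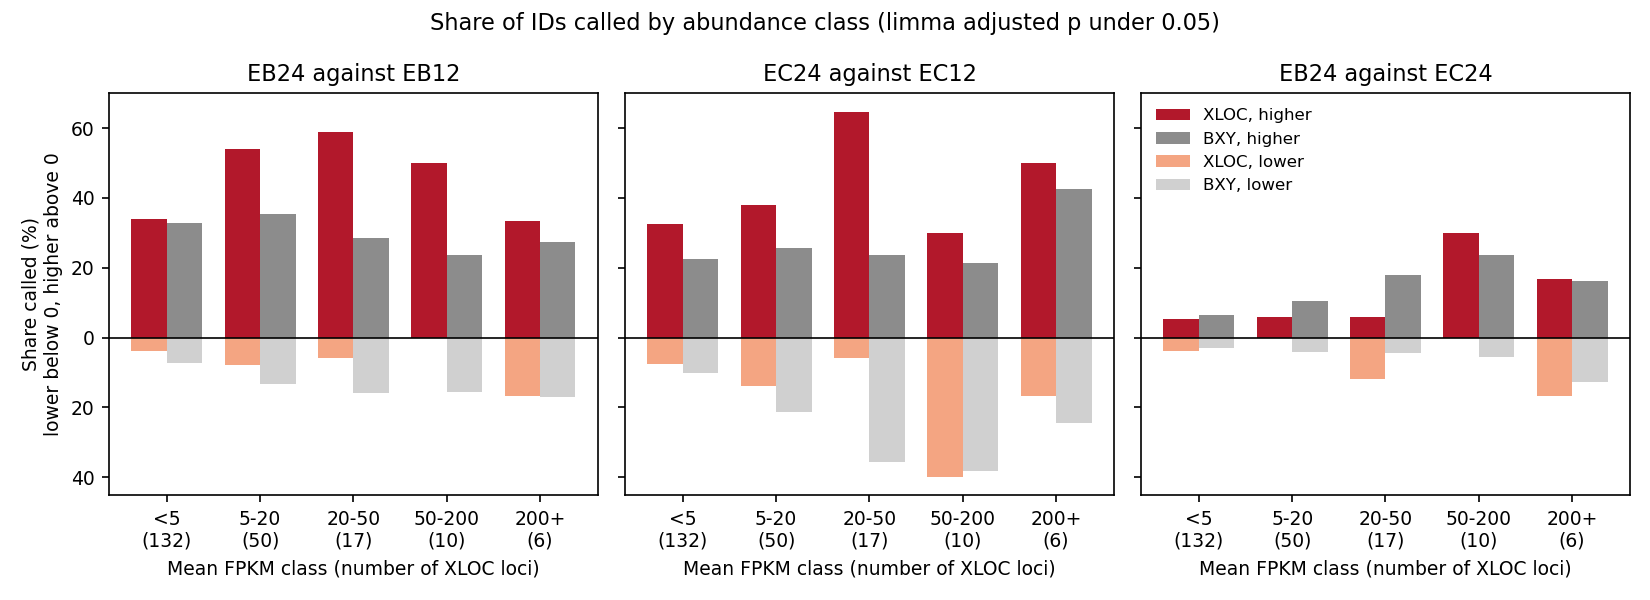
Share of IDs called higher (above the zero line) and lower (below it) in each class of mean FPKM, for XLOC loci (red and orange, left bars) and BXY IDs (greys, right bars), with limma adjusted p under 0.05. In EB24 against EB12 and EC24 against EC12 the red bars exceed the dark grey ones most at a mean of 20 to 50, with 58.8% against 28.6% and 64.7% against 23.7%. The numbers under the axis are XLOC loci per class.

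The scaling moved these counts. After median ratio scaling 75 loci rose and 16 fell in EB, with 26.1% and 14.9% of class-weighted BXY IDs, and 76 rose and 24 fell in EC, with 23.3% and 17.2%. After quantile normalization, which gives all libraries the same distribution of values, 58 rose and 24 fell in EB, with 20.4% and 19.99% of weighted BXY IDs, and 59 rose and 26 fell in EC, with 19.1% and 20.7%. The rising share of calls was thus 89.0% as deposited, 82.4% and 70.7% in EB, and 77.5%, 76.0% and 69.4% in EC. The median log2 difference of all tested IDs in EB was -0.02 under both scalings, against 0.15 as deposited, and that of the 215 loci was 0.35 and 0.14. In EC the medians of all tested IDs were 0.02 and -0.02, and those of the 215 loci 0.39 and 0.24. Of the 28 loci at 1 or more in 24 h libraries only, 20 rose in EB and 18 rose in EC. Among the 83 loci with a mean of at least 5 in the same fit, 44 rose and 6 fell in EB, and 36 rose and 13 fell in EC. A fit of only such IDs gave the same counts, 53.0% and 7.23% in EB and 43.4% and 15.7% in EC. Of class-weighted BXY IDs in that fit, 31.9% rose and 14.6% fell in EB, and 26.4% rose and 27.1% fell in EC.

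Loci called with both agents mostly changed in the same direction, and the 2 comparisons have no library in common although they use the same spread per locus. Of the 215 loci, 58 rose in both (27.0%, against 17.2% of BXY IDs) and 8 fell in both (3.72%, against 10.4%). These counts keep the loci that met the rule only through 24 h libraries. Another 30 rose in EB and were not called in EC, 21 rose in EC and were not called in EB, 3 fell in EB only and 14 fell in EC only. In neither were 80 loci called. Calls in opposite directions were made for 1 locus, XLOC_005464, chosen here after its values were seen. It averaged 85.7 ± 1.61 FPKM in EB24 and 68.1 ± 10.8 in EB12, and 68.4 ± 1.64 in EC24 and 85.1 ± 7.10 in EC12 (SD, n = 3 each), with log2 differences of 0.34 in EB and -0.31 in EC (limma adjusted p = 0.0329 and 0.0421).

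**Figure D3:**
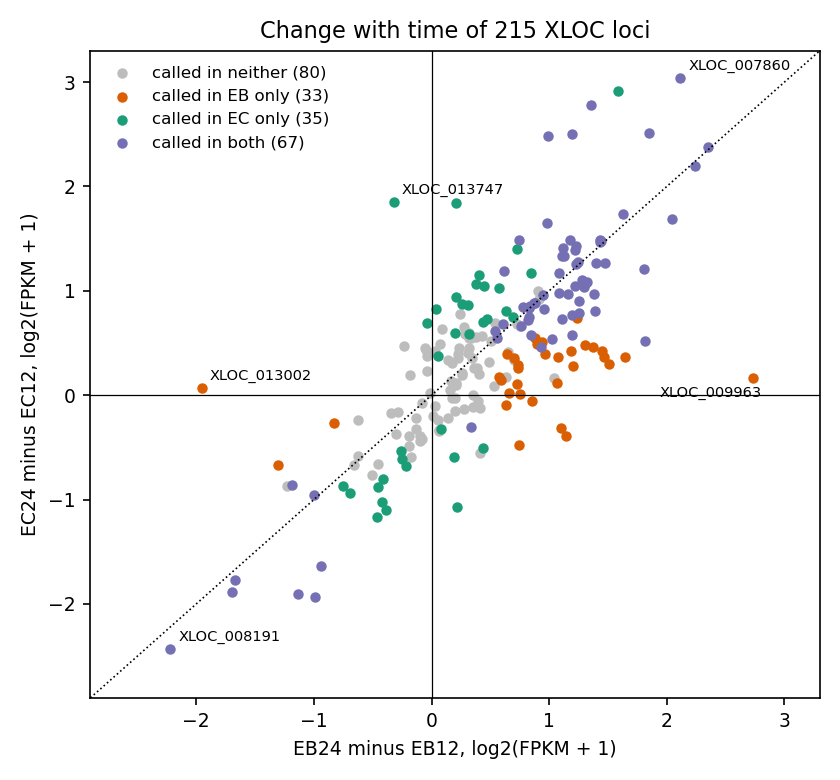
Log2 difference of each of the 215 XLOC loci between EB24 and EB12 (horizontal) and between EC24 and EC12 (vertical), on the log2(FPKM + 1) scale, coloured by the comparison in which limma called it, with the dotted line marking equal change. The 58 loci that rose in both lie in the upper right, XLOC_009963 lies far to the right with 2.73 in EB and 0.16 in EC, and XLOC_013747 above the middle with -0.32 in EB and 1.85 in EC.

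The largest rises in EB were those of XLOC_009963, XLOC_004186, XLOC_012139, XLOC_007860 and XLOC_000079. XLOC_004186 stood at 59.0, 63.1 and 54.9 FPKM in EB24, against 7.39, 17.3 and 9.65 FPKM in EB12. It stood at 69.1, 60.2 and 64.0 FPKM in EC24, against 6.93, 15.5 and 14.3 FPKM in EC12. No 12 h library reached any 24 h library, and the log2 differences were 2.35 ± 0.29 in EB and 2.38 ± 0.29 in EC (SE; limma adjusted p = 0.000161 and 6.8e-05). XLOC_012139 stood at 456, 558 and 472 FPKM in EB24, against 102, 142 and 77.0 FPKM in EB12. It stood at 560, 462 and 439 FPKM in EC24, against 87.5, 118 and 114 FPKM in EC12. The log2 differences of XLOC_012139 were 2.24 ± 0.20 in EB and 2.19 ± 0.20 in EC (SE; limma adjusted p = 2.23e-05 and 1.24e-05), and EB24 and EC24 overlapped.

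XLOC_000079 and XLOC_001625 likewise rose with both agents. XLOC_000079 averaged 15.8 ± 2.86 FPKM in EB24 and 3.21 ± 1.58 in EB12, and 15.6 ± 0.814 in EC24 and 4.13 ± 0.410 in EC12 (SD, n = 3 each; log2 differences 2.05 and 1.69, limma adjusted p = 0.0001 and 0.000143). XLOC_001625 had the smallest spread among these, with 142, 161 and 143 FPKM in EB24, against 55.4, 53.4 and 53.7 FPKM in EB12. In EC24 it had 158, 156 and 147 FPKM, against 61.5, 48.0 and 55.0 FPKM in EC12. Its log2 differences were 1.44 and 1.48, each with an SE of 0.10 (limma adjusted p = 7.68e-06 and 3.86e-06).

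The largest rises in EC were those of XLOC_007860, XLOC_012585, XLOC_010443, XLOC_014766 and XLOC_009909. XLOC_007860 rose by 3.04 ± 0.20 log2 units in EC and by 2.11 ± 0.20 in EB (SE; limma adjusted p = 2.76e-06 and 2.74e-05). XLOC_014766 stood at 19.0, 18.5 and 17.4 FPKM in EC24, against 1.68, 2.64 and 3.00 FPKM in EC12. In EB24 it stood at 17.2, 15.7 and 10.9 FPKM, against 3.94, 3.91 and 2.19 FPKM in EB12. It rose by 2.51 log2 units in EC and 1.85 in EB (limma adjusted p = 1.35e-05 and 0.000163). XLOC_010443 averaged 18.7 ± 0.950 FPKM in EC24 and 2.41 ± 2.50 in EC12, and 13.1 ± 1.13 in EB24 and 4.97 ± 2.72 in EB12 (SD, n = 3 each), with log2 differences of 2.78 and 1.35 (limma adjusted p = 0.000376 and 0.0291). XLOC_012585 stood at 60.1, 53.9 and 51.8 FPKM in EC24, against 9.51, 9.99 and 2.55 FPKM in EC12, a rise of 2.92 ± 0.60 log2 units (SE; limma adjusted p = 0.00188). In EB24 it stood at 29.7, 39.1 and 23.1 FPKM, against 31.8, 3.91 and 5.84 FPKM in EB12, where replicate 1 lay within the range of EB24. The log2 difference in EB was 1.58 (limma adjusted p = 0.0517), and 2.42 without EB12 replicate 1 (limma adjusted p = 0.00131, over all alternatives 2.72e-05 to 0.183).

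The largest falls differed in how even the replicates were. XLOC_012097 had the smallest SE of them, with 30.4, 28.8 and 28.6 FPKM in EB24, against 64.3, 68.9 and 63.6 FPKM in EB12. It had 19.3, 20.7 and 18.04 FPKM in EC24, against 63.8, 102 and 64.9 FPKM in EC12. The log2 differences were -1.14 ± 0.16 in EB and -1.90 ± 0.16 in EC (SE; limma adjusted p = 0.000278 and 8.35e-06), with no overlap between the times. XLOC_004275 averaged 4.81 ± 1.29 FPKM in EB24 and 10.6 ± 2.85 in EB12, and 3.62 ± 0.145 in EC24 and 16.9 ± 3.65 in EC12 (SD, n = 3 each; log2 differences -0.99 and -1.93, limma adjusted p = 0.00517 and 5.57e-05). XLOC_008175 averaged 3.85 ± 0.445 FPKM in EB24 and 15.6 ± 8.26 in EB12, and 5.24 ± 0.796 in EC24 and 20.5 ± 4.54 in EC12 (log2 differences -1.67 and -1.77, limma adjusted p = 0.000905 and 0.000362).

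XLOC_008191 and XLOC_013814 were low at 24 h and differed widely between libraries at 12 h. XLOC_008191 stood at 1.84, 1.11 and 1.05 FPKM in EB24, against 48.6, 2.07 and 7.17 FPKM in EB12. It stood at 0.37, 0.00 and 0.63 FPKM in EC24, against 3.42, 13.3 and 4.55 FPKM in EC12. EB12 replicate 1 was far above all other libraries. The log2 differences were -2.22 ± 0.78 in EB and -2.43 ± 0.78 in EC (SE; limma adjusted p = 0.0366 and 0.0208). In EB the difference was -1.12 without EB12 replicate 1 and no longer passed (limma adjusted p = 0.0930, over all alternatives 0.000143 to 0.0930). It also did not pass without EB12 replicate 3 or any of EB24 replicates 1, 2 and 3, and in EC it did not pass without EC24 replicate 2 (limma adjusted p = 0.0662) or EC12 replicate 2 (0.0895; over all alternatives 0.00106 to 0.0895). XLOC_013814 averaged 1.64 ± 0.405 FPKM in EB24 and 8.36 ± 5.09 in EB12, and 0.607 ± 0.533 in EC24 and 5.42 ± 3.61 in EC12 (SD, n = 3 each; log2 differences -1.70 and -1.89, limma adjusted p = 0.00929 and 0.0039).

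XLOC_013002 and XLOC_010138 also fell in EB. XLOC_013002 stood at 82.3, 93.4 and 89.9 FPKM in EB24, against 823, 151 and 331 FPKM in EB12. It stood at 216, 217 and 206 FPKM in EC24, against 288, 298 and 97.3 FPKM in EC12. The log2 difference was -1.95 ± 0.52 in EB (SE; limma adjusted p = 0.0103) and 0.07 in EC (limma adjusted p = 0.924), and the difference between these changes did not pass the interaction test (limma adjusted p = 0.0984). All 3 EB24 values lay below all 3 EC24 values, yet the wide 12 h spread entered the test and the log2 difference of -1.26 did not pass (limma adjusted p = 0.109). With the 24 h libraries alone it did (limma adjusted p = 7.71e-07, over all alternatives 7.71e-07 to 0.223).

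**Figure D4:**
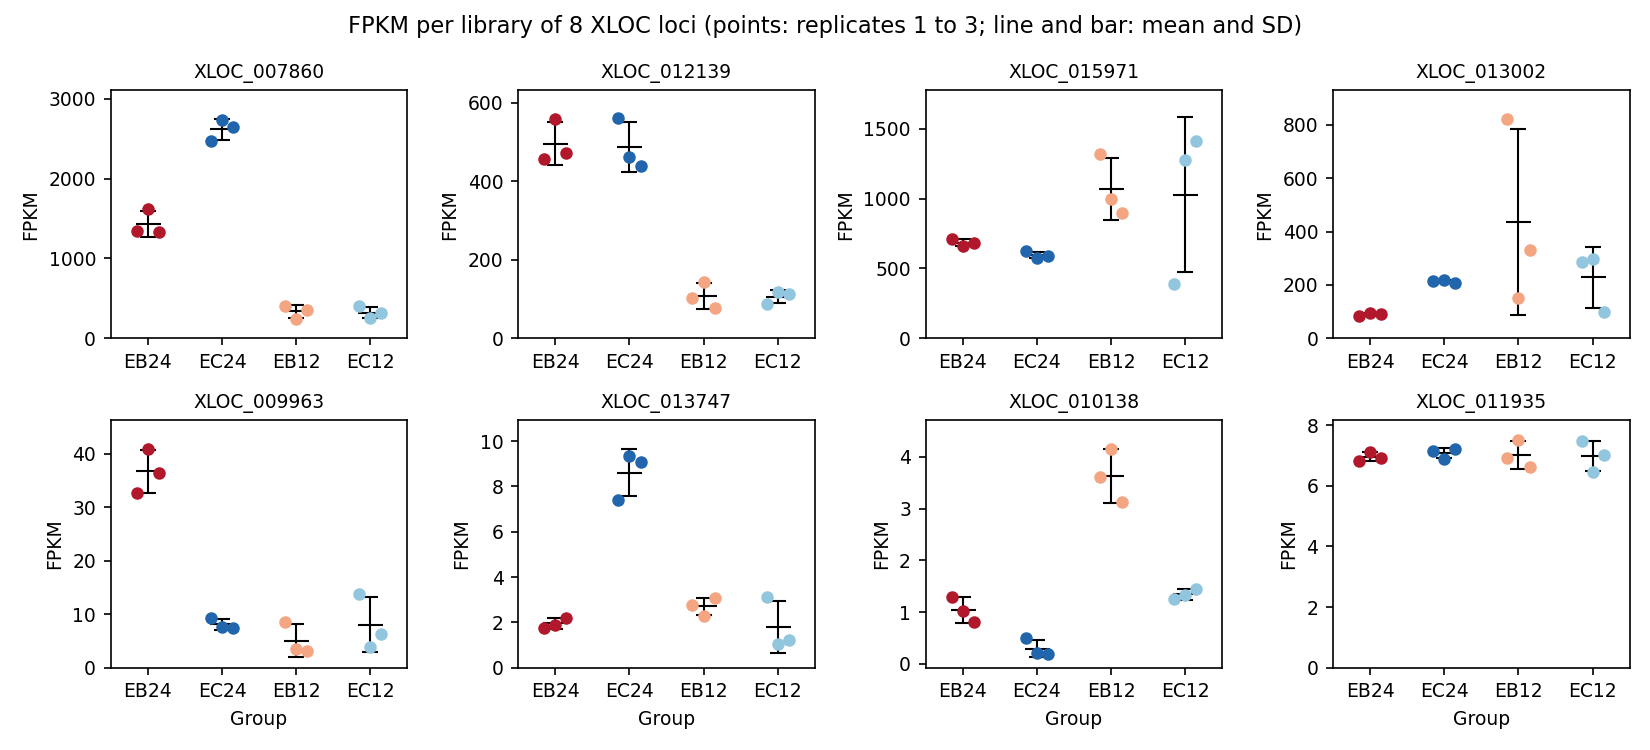
FPKM in each library of 8 XLOC loci, with points for replicates 1 to 3 of each group and a line and bar for mean and SD (n = 3). XLOC_007860 and XLOC_012139 are higher at 24 h, XLOC_015971 and XLOC_013002 scatter at 12 h, XLOC_009963 is high in EB24 with 32.7 to 40.9 FPKM, XLOC_013747 in EC24 with 7.41 to 9.34, XLOC_010138 in EB12 with 3.12 to 4.16, and XLOC_011935 keeps to 6.46 to 7.51 in all libraries.

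The agents were next compared at 24 h. Between EB24 and EC24, 15 of the 215 loci were higher with EB (6.98%), 8 were lower (3.72%) and 192 did not pass, where 14.5% of all tested IDs were higher and 4.74% lower, 19.3% in all. Of BXY IDs weighted to the same abundance classes, 9.43% were higher and 3.75% lower. At 1 or more in 24 h libraries only were 5 of the 15 higher loci and 1 of the 8 lower ones. The 5 include XLOC_014668, which reached 1 only in EB24. A mean FPKM of at least 1 was reached by 10 of the higher loci and by all 8 lower ones. The median log2 difference of the 215 loci was 0.06, against 0.14 for all tested IDs and 0.13 for class-weighted BXY IDs. The groups did not overlap for 72 of the 215 loci, with 43 higher and 29 lower in EB24, against 60.1% of all tested IDs, 40.4% higher and 19.7% lower. Between replicates at 24 h the XLOC loci had a median SD of 0.22 log2 units against 0.11 for BXY IDs, or 0.26 against 0.23 below a mean FPKM of 5.

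The balance of these calls depended on the scaling, and their number on single libraries. Higher calls were 65.2% of calls as deposited. They were 43.8% after median ratio scaling (7 higher, 9 lower) and 42.1% after quantile normalization (8 higher, 11 lower). Of all tested IDs, 7.04% were higher and 5.66% lower after median ratio scaling, and 9.77% and 7.84% after quantile normalization. For class-weighted BXY IDs the shares were 4.82% and 4.19%, and 6.59% and 6.47%. The median log2 difference of all tested IDs was 0.06 and 0.03 under these scalings, and that of the 215 loci -0.01 and -0.06. The higher calls numbered 7 without EB24 replicate 1, EB24 replicate 2 or EC24 replicate 2, and 8 without EB24 replicate 3 or EC24 replicate 3. Over all tested IDs the higher share fell too, from 14.5% to between 5.2% and 6.5% in these fits. The lower calls numbered 2 without EB24 replicate 3 and 3 without any other 24 h library. Without a 24 h library, 1.9% to 2.3% of all tested IDs were lower, against 4.74%. Higher calls stayed the more numerous without any 1 library (57.1% to 80% of calls). With the 24 h libraries alone 41 loci were higher and 25 lower, which includes each of the 23 loci called with 12 libraries, in the same direction. In that fit 35.9% of all tested IDs were higher and 16.9% lower. Beside the loci described next, the other 10 higher loci had log2 differences of 0.46 to 1.09 and the other 3 lower loci of -0.58 to -0.56.

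XLOC_009963 had the largest positive difference. It stood at 32.7, 40.9 and 36.4 FPKM in EB24, against 9.32, 7.66 and 7.50 FPKM in EC24. In EB12 it stood at 8.60, 3.43 and 3.22 FPKM, and in EC12 at 13.8, 3.98 and 6.35 FPKM. EB24 lay above every other library, and the other groups overlapped. The log2 difference between EB24 and EC24 was 2.04 ± 0.38 (SE; limma adjusted p = 0.00505), and it passed with 1.95 to 2.16 under all 24 alternatives.

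XLOC_000777 and XLOC_012967 were also higher in EB24. XLOC_000777 stood at 26.1, 36.5 and 27.8 FPKM in EB24, against 12.7, 10.8 and 10.7 FPKM in EC24. In EB12 it stood at 9.62, 6.33 and 7.62 FPKM, and in EC12 at 6.0, 9.39 and 7.79 FPKM. The 12 h groups overlapped, EC24 lay above both, and EB24 lay above EC24 by 1.32 ± 0.20 log2 units (SE; limma adjusted p = 0.00215). XLOC_012967 stood at 102, 115 and 93.3 FPKM in EB24, against 55.2, 43.7 and 48.7 FPKM in EC24. In EB12 it stood at 98.5, 63.8 and 69.4 FPKM, and in EC12 at 60.5, 87.3 and 64.1 FPKM. It was higher in EB24 by 1.06 ± 0.18 log2 units (SE; limma adjusted p = 0.00353), with EC24 below all 12 h libraries. Both passed under all 24 alternatives.

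XLOC_006445 and XLOC_015624 passed less firmly. XLOC_006445 stood at 7.44, 7.69 and 8.10 FPKM in EB24, against 3.98, 3.77 and 4.01 FPKM in EC24, higher in EB24 by 0.83 ± 0.24 log2 units (SE; limma adjusted p = 0.0325). Its 12 h means were 2.99 ± 0.728 FPKM in EB12 and 5.72 ± 2.44 in EC12 (SD, n = 3 each), and the call was lost whichever 24 h library was left out (limma adjusted p of 0.0806 to 0.101, over all alternatives 2.48e-05 to 0.101). XLOC_015624 stood at 3.64, 3.54 and 2.37 FPKM in EB24, against 1.26, 0.24 and 1.65 FPKM in EC24 (log2 difference 1.09 ± 0.32, limma adjusted p = 0.0339). Its call held in 14 of 23 alternatives, and was lost with median ratio scaling, quantile normalization, pseudocounts of 0.1 and 0.5, and without any of EB24 replicates 1, 2 and 3 or EC24 replicates 1 and 2 (limma adjusted p over all alternatives 0.000751 to 0.171).

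Among loci lower in EB24, XLOC_013747 had the largest difference. It stood at 1.76, 1.91 and 2.21 FPKM in EB24, against 7.41, 9.34 and 9.10 FPKM in EC24. In EB12 it stood at 2.76, 2.30 and 3.07 FPKM, and in EC12 at 3.13, 1.05 and 1.22 FPKM. EC24 lay above all other libraries, and EB24 lay below all of EB12. The log2 difference between EB24 and EC24 was -1.70 ± 0.25 (SE; limma adjusted p = 0.00165), and it passed with -2.08 to -1.64 under all 23 alternatives that could be fitted for it.

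XLOC_010869 and XLOC_009909 rose from 12 h to 24 h with both agents and were lower in EB24 than in EC24. XLOC_010869 met the rule only through 24 h libraries, so its rise with time is a description. XLOC_010869 stood at 2.12, 1.02 and 2.07 FPKM in EB24, against 4.83, 7.07 and 5.77 FPKM in EC24, which gave -1.35 ± 0.23 log2 units (SE; limma adjusted p = 0.00385). It stood at 0.38, 0.29 and 0.39 FPKM in EB12, and at 0.61, 0.00 and 0.13 FPKM in EC12. With a pseudocount of 0.1 the call was lost (limma adjusted p = 0.0605, over all alternatives 1.61e-05 to 0.0605). XLOC_009909 stood at 29.4, 31.1 and 23.8 FPKM in EB24, against 75.4, 52.03 and 56.5 FPKM in EC24, which gave -1.09 ± 0.32 log2 units (SE; limma adjusted p = 0.0344). It stood at 10.6, 21.5 and 6.77 FPKM in EB12, and at 7.67, 12.2 and 10.1 FPKM in EC12, and the call was lost whichever 24 h library was left out (limma adjusted p of 0.0688 to 0.119, over all alternatives 0.000145 to 0.119).

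XLOC_007860, the most abundant locus, and XLOC_007082 shared this order of groups. XLOC_007860 was lower in EB24 by 0.88 ± 0.20 log2 units (SE; log2 difference -0.88, limma adjusted p = 0.0120), but not past the threshold after quantile normalization (-0.66, limma adjusted p = 0.0545) or without EB24 replicate 3 (-0.83, limma adjusted p = 0.0515; over all alternatives 4.19e-06 to 0.0545). XLOC_007082 averaged 1.24 ± 0.110 FPKM in EB24 and 2.71 ± 0.311 in EC24, and 0.697 ± 0.133 in EB12 and 0.707 ± 0.447 in EC12 (SD, n = 3 each). Its log2 difference at 24 h was -0.73 ± 0.19 (SE; limma adjusted p = 0.0237), and it did not pass when any 24 h library was left out (limma adjusted p of 0.0517 to 0.0831) or with a pseudocount of 0.1 (0.0693; over all alternatives 0.000172 to 0.0831).

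**Figure D5:**
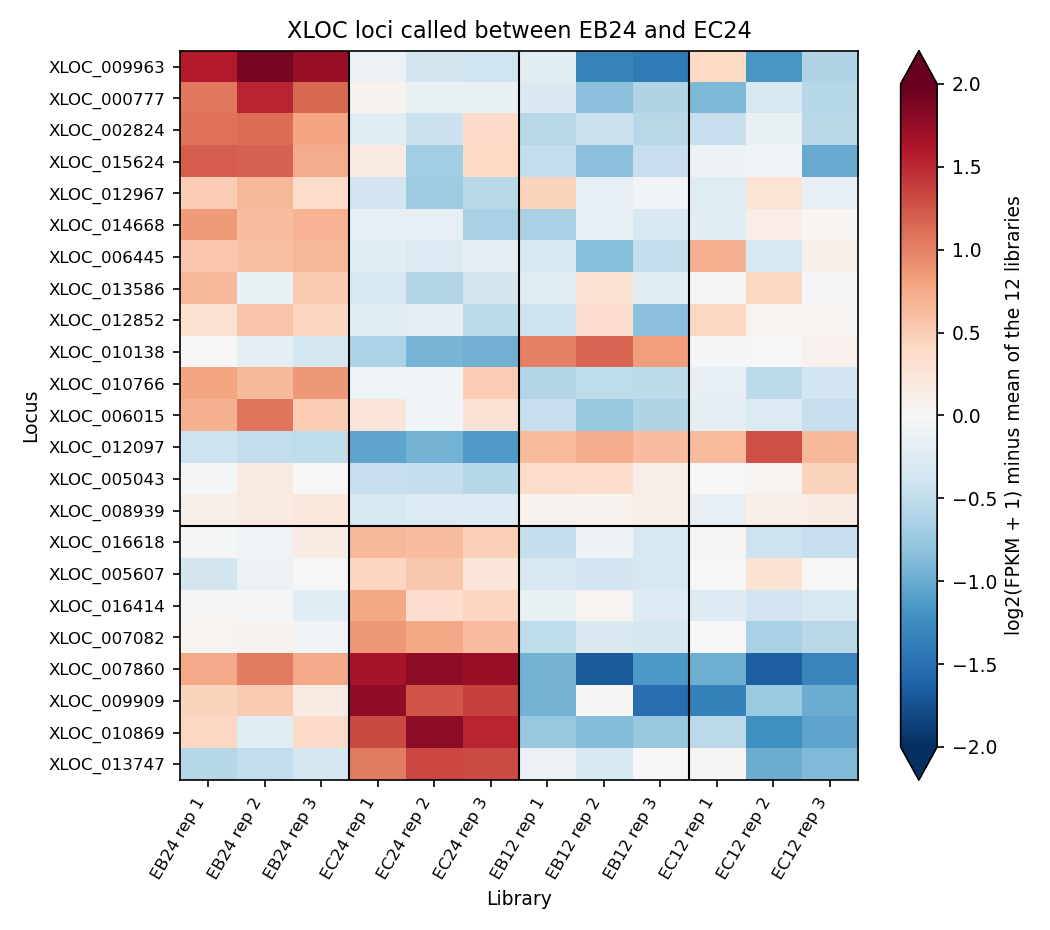
Level of the 23 XLOC loci called between EB24 and EC24, as log2(FPKM + 1) minus the mean of the 12 libraries, with libraries in columns and loci in rows from the largest positive to the largest negative difference. The upper 15 loci are higher in EB24 and the lower 8 in EC24, with XLOC_009963 at the top (2.04) and XLOC_013747 at the bottom (-1.70).

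The 23 called loci were placed against the mean of the 12 h libraries on the log2 scale. The EB24 mean was intermediate, with the 12 h mean on one side and EC24 on the other, for 9 loci (3 higher and 6 lower). It lay beyond the 12 h mean as seen from EC24 for 8 loci (6 higher and 2 lower), and on the far side of EC24 for 6 loci, all higher. Of the called BXY IDs, 52.2% were intermediate, 32.6% beyond and 15.1% on the far side. EC24 enters both sides of this count, so it is a description.

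At 12 h no XLOC locus was called between EB12 and EC12, where limma called 0.116% of all tested IDs, 0.0726% higher and 0.0436% lower. An unadjusted limma p under 0.05 was found for 15 of the 215 loci, and for 9 with the 12 h libraries alone, where limma again called none. The share of all tested IDs under that unadjusted p was not taken. The groups did not overlap for 14 loci, with 4 higher and 10 lower in EB12, against 9.83% of all tested IDs, 2.43% higher and 7.41% lower. The median log2 difference was -0.04, against -0.05 for all tested IDs. Without EB12 replicate 2 the test called 2 higher and 2 lower loci (0.93% each), against 0.97% and 1.29% of all tested IDs.

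XLOC_010138 came nearest to the threshold at 12 h and is given here because of its values. It stood at 3.61, 4.16 and 3.12 FPKM in EB12, against 1.25, 1.32 and 1.45 FPKM in EC12. In EB24 it stood at 1.29, 1.02 and 0.80 FPKM, against 0.49, 0.21 and 0.18 FPKM in EC24. EB lay above EC in every library at both times. The log2 difference was 0.98 ± 0.17 at 12 h (SE; limma adjusted p = 0.0594) and 0.66 ± 0.17 at 24 h (limma adjusted p = 0.0227), and the interaction did not pass (limma adjusted p = 0.394). At 12 h it passed with no filter (limma adjusted p = 0.0447), without the variance trend (0.0366), with weights per library (0.0399) and without EB12 replicate 2 (0.0381), and not under the other alternatives, among them a fit with the 12 h libraries alone (0.979). XLOC_010138 fell with time in EB by 1.19 log2 units and in EC by 0.86 (log2 differences -1.19 and -0.86, limma adjusted p = 0.000365 and 0.00148).

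The agent difference at 24 h was set against that at 12 h as an interaction, which is also the difference between the changes with time in EB and in EC. It passed for 11 of the 215 loci, 8 positive (3.72%) and 3 negative (1.40%), where 8.32% of all tested IDs passed, 6.46% positive and 1.86% negative. Of class-weighted BXY IDs 4.32% were positive and 1.46% negative. At 1 or more in 24 h libraries only were 2 of the 8 positive loci, XLOC_014668 and XLOC_002824, and 1 of the 3 negative ones, XLOC_010869. XLOC_009963 (2.57 ± 0.53) and XLOC_006445 (1.53 ± 0.34) were the most positive, in log2 units with SE (limma adjusted p = 0.0210 and 0.0255). The interaction of XLOC_009963 did not pass without any of EB24 replicates 1, 2 and 3 or EC24 replicates 2 and 3 (limma adjusted p of 0.0506 to 0.0655). That of XLOC_006445 was lost whichever 24 h library was left out (limma adjusted p of 0.0562 to 0.0732). XLOC_014668 (1.41) came next, but it met the rule only through the 3 EB24 libraries, the group where it is high, so its values are a description and its place among the higher calls of EB24 and the positive interactions supports nothing. It stood at 1.83, 1.42 and 1.56 FPKM in EB24 and at 0.40, 0.40 and 0.00 FPKM in EC24. It stood at 0.00, 0.40 and 0.27 FPKM in EB12, and at 0.34, 0.73 and 0.62 FPKM in EC12.

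XLOC_013747 (-2.17 ± 0.35), XLOC_003934 (-1.64 ± 0.38) and XLOC_010869 (-1.49 ± 0.33) were the negative ones (limma adjusted p = 0.0090 for XLOC_013747 and 0.0297 for XLOC_003934). XLOC_010869 met the rule only through 24 h libraries, where it is high, so its interaction is a description. XLOC_003934 stood at 25.2, 24.3 and 18.4 FPKM in EB24, against 46.7, 38.01 and 37.7 FPKM in EC24. It stood at 22.7, 12.1 and 25.8 FPKM in EB12, against 15.1, 9.31 and 8.40 FPKM in EC12. EC24 lay above EB24, and EB12 reached above EC12 in replicates 1 and 3. XLOC_013747 passed under all 22 alternatives that could be fitted, with -2.80 to -1.98. XLOC_003934 passed under 15 of 23 (limma adjusted p over all alternatives 0.000168 to 0.0843). The count of positive loci was 0 or 1 without any of EB24 replicates 1, 2 and 3 or EC24 replicates 2 and 3. It was 3 without EC24 replicate 1, 4 without EB12 replicate 3 or EC12 replicate 3, and was 18 without EB12 replicate 2. Of all tested IDs, 0.89% to 1.2% were positive in the fits with 0 or 1 locus, and 13.1% without EB12 replicate 2. The share was 2.2% without EC24 replicate 1, 2.3% without EB12 replicate 3 and 4.2% without EC12 replicate 3. The count of negative loci was 1 without any of EB24 replicates 1, 2 and 3 or EC24 replicates 2 and 3, 5 without EB12 replicate 2 and 7 without EC12 replicate 1. Of all tested IDs, 0.39% to 0.46% were negative in the fits with 1 such locus, 4.83% without EB12 replicate 2 and 3.58% without EC12 replicate 1. After median ratio scaling 3 loci were positive and 4 negative, against 1.48% and 2.03% of all tested IDs.

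Spread between replicates was larger at 12 h than at 24 h for 144 of the 215 loci (67.0%), against 88.7% of BXY IDs. The median SD was 0.22 log2 units at 24 h and 0.31 at 12 h for XLOC loci, and 0.11 at 24 h and 0.28 at 12 h for BXY IDs. By class of mean FPKM, the SD at 12 h was the larger for 68 of 132 loci under 5, 44 of 50 at 5 to 20, 17 of 17 at 20 to 50, 9 of 10 at 50 to 200 and 6 of 6 at 200 or more. The widest spread at 12 h was that of XLOC_008191, XLOC_013542 and XLOC_012585, with SDs of 1.57, 1.27 and 1.22 log2 units. XLOC_013542 stood at 24.8, 2.44 and 21.04 FPKM in EB12 and at 15.1, 4.49 and 6.44 FPKM in EC12, against 9.33 to 12.6 FPKM in EB24 and 7.41 to 11.4 FPKM in EC24. At the other end, XLOC_011935 had an SD of 0.06 log2 units over all 12 libraries, with 6.83 to 7.12 FPKM in EB24, 6.89 to 7.21 in EC24, 6.62 to 7.51 in EB12 and 6.46 to 7.47 in EC12. XLOC_009025 followed with 0.16 (41.1 to 53.1 FPKM at 24 h and 38.2 to 54.02 at 12 h) and XLOC_009668 with 0.18.

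The ID numbers of the loci were compared with their profiles as a description. Over all 23005 pairs of the 215 loci the median Pearson correlation of log2(FPKM + 1) across the 12 libraries was 0.26, and over 13 pairs whose ID numbers lie at most 5 apart it was 0.29. These points share the split between the times. The pair XLOC_004730 and XLOC_004732 had the highest value of the 13 (0.82), and XLOC_001697 and XLOC_001698 the lowest (-0.63). Whether the numbers follow the order of loci on the genome is not given in the sources used here.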

How the data were processed

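RNA of adult worms was sequenced in 12 libraries, 3 per group, with groups and replicate numbers read from the titles. The authors deposited a table of FPKM with 2 decimals. The submitters' processing notes name TopHat2 2.1.1. No source used here gives the build, annotation, counting tool, strand handling or filters, and FPKM of overlapping loci is uncertain.

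The 13768 IDs that reached an FPKM of 1 in 3 or more libraries were fitted as log2(FPKM + 1) in limma 3.58.1 (R 4.3.3, eBayes with trend), each group having its own mean. Contrasts were two-sided and Benjamini-Hochberg adjusted over all 13768 IDs at 0.05. The script was tested on simulated data. FPKM values are not counts, so no count model was used. No 2 libraries held identical values.

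The text names the 10 most abundant loci, the 5 largest called rises and falls per comparison (no overlap between groups, mean FPKM of at least 1), the 3 extremes of the interaction in each direction, and the 3 steadiest and the 3 most uneven at 12 h. No locus was at 0 throughout 1 group and at least 1 throughout another. Members and lists were chosen with earlier results of these data known. Alternatives were pseudocounts, filters, scalings, only the groups compared, a replicate block, variance models, a minimum log2 difference of 1, and omission of each library.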

Additional observations from a re-analysis of the deposited data

Results flagged for a closer look

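The agent difference was not the same at 24 h and 12 h for 11 XLOC loci in the interaction test (limma, 0.05 after adjustment). Positive ones were 3.72% of the 215 loci and negative ones 1.40%, against 6.46% and 1.86% of all tested IDs. Of class-weighted BXY IDs, 4.32% were positive and 1.46% negative. Without any of EB24 replicates 1, 2 and 3 or EC24 replicates 2 and 3, 0 or 1 locus was positive and 1 negative. Each value is the 24 h difference minus the 12 h difference in log2 units. The positive ones were 2.57 for XLOC_009963, 1.53 for XLOC_006445, 1.29 for XLOC_000777, 1.22 for XLOC_012852, 0.94 for XLOC_012967 and 0.65 for XLOC_005464 (limma adjusted p = 0.0210, 0.0255, 0.0245, 0.0458, 0.0436 and 0.0366). The other positive ones, 1.41 for XLOC_014668 and 1.21 for XLOC_002824, are descriptions. XLOC_014668 reached an FPKM of 1 only in EB24, the group where it is high. XLOC_002824 reached it only in 24 h libraries and was highest in EB24. The negative ones were -1.64 for XLOC_003934 and -2.17 for XLOC_013747 (limma adjusted p = 0.0297 and 0.0090). The other negative one, -1.49 for XLOC_010869, is a description. XLOC_010869 also reached an FPKM of 1 only in 24 h libraries and was highest in EC24. At 12 h, which enters each value, no XLOC locus was called between EB12 and EC12. XLOC_012852 averaged 96.6 ± 9.33 FPKM in EB24 and 57.8 ± 7.36 in EC24, and 60.7 ± 26.004 in EB12 and 80.9 ± 11.8 in EC12 (SD, n = 3 each). XLOC_002824 averaged 2.18 ± 0.396 FPKM in EB24 and 0.533 ± 0.465 in EC24, and 0.113 ± 0.058 in EB12 and 0.220 ± 0.185 in EC12.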

How the results depend on the processing

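Read totals are unknown, so the counting error of loci near an FPKM of 1 could not be given, and with 3 libraries per group a single library can decide a call. For the 74 named values, 1612 of 1758 alternatives kept direction and side of the threshold, 84 lost and 31 gained a call and 0 reversed a called direction. The other 31, over 13 of the values, had the opposite sign, and the value passed in neither fit. Loci higher in EB24 than in EC24 numbered 9 with a mean FPKM of at least 5, 7 with median ratio scaling, 8 with quantile normalization, 41 with the compared groups alone, 52 with weights per library and 6 at a log2 difference of at least 1, against 15. Loci lower in EB24 than in EC24 numbered 5 with a pseudocount of 0.1, 4 with the mean of at least 5, 25 with the compared groups alone, 26 with weights and 3 at log2 1, against 8. Of all tested IDs, 35.9% were higher and 16.9% lower with the compared groups alone. With weights 40.8% were higher and 17.3% lower, against 14.5% and 4.74%. The shares were 7.04% and 5.66% with median ratio scaling, 9.77% and 7.84% with quantile normalization, and 18.1% and 5.65% with the mean of at least 5. Between EB12 and EC12, 1 locus was higher with no filter and 1 with no trend, against 0. With weights 5 were higher and 7 lower, against 0. Of all tested IDs, 0.054% were higher with no filter and 0.058% with no trend. With weights 3.44% of all tested IDs were higher and 5.43% lower, against 2.33% and 3.26% of the loci. Between EC24 and EC12, 36 were higher and 13 lower with the mean of at least 5, and 41 and 10 at log2 1, against 79 and 23. Between EB24 and EB12, 44 were higher and 6 lower with the mean of at least 5, 58 and 24 with quantile normalization, 53 higher at log2 1 and 21 lower with weights, against 89 and 11. The interaction was positive for 3 loci with median ratio scaling, 5 with quantile normalization and 35 with weights, against 8. It was negative for 1 with the mean of at least 5 and 11 with weights, against 3. Of all tested IDs, 1.48% were positive with median ratio scaling, 4.02% with quantile normalization and 29.3% with weights. Negative were 2.44% with the mean of at least 5 and 11.4% with weights. The share of summed FPKM in EB24 minus EC24 reversed to 0.0240 percentage points without the most abundant locus. Fewer loci were tested with the mean of at least 5 and a larger change was asked for at log2 1, and for the other settings the cause was not tested.

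Leaving out 1 library at a time gave 7 to 19 loci higher and 2 to 11 lower in EB24 than in EC24, 0 to 2 higher and 0 to 2 lower in EB12 than in EC12, 63 to 83 and 16 to 27 in EC24 than in EC12, 70 to 93 and 9 to 13 in EB24 than in EB12, and 0 to 18 positive and 1 to 7 negative interactions. Of all tested IDs, 5.2% to 18.45% were higher and 1.9% to 6.71% lower in EB24 than in EC24 in these fits. Between EB12 and EC12 the shares were 0.022% to 0.97% and 0% to 1.3%. For EC24 against EC12 they were 20.02% to 29.15% and 21.5% to 28.4%, and for EB24 against EB12 23.2% to 33.0% and 8.51% to 14.6%. The interaction was positive for 0.89% to 13.1% and negative for 0.39% to 4.83%. The differences in the share of summed FPKM were -0.115 to -0.0886 percentage points for EB24 minus EC24, 0.229 to 0.265 for EC24 minus EC12 and 0.123 to 0.189 for EB24 minus EB12. For EB12 minus EC12 they were -0.0376 to 0.0276, below 0 without EB12 replicate 1 (-0.0376) and without EC12 replicate 1 (-0.0180).

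Replicate numbers recur in every group, and correlations of the deviations of same-numbered libraries were 0.04, 0.04 and -0.02 between EB24 and EC24, 0.34, 0.15 and -0.05 between EB12 and EC12, -0.03, 0.02 and -0.04 between EC24 and EC12, and 0.05, 0.05 and 0.06 between EB24 and EB12. Libraries of unlike number reached 0.53 and -0.57 between EB12 and EC12. In no comparison did every pair exceed 0.1, so the numbers were not taken to pair the libraries. Every library correlated best with its own number between EB24 and EB12, and not in the other comparisons. With a replicate block 15 loci were higher and 9 lower in EB24 than in EC24, against 13.5% and 4.5% of all tested IDs. Between EC24 and EC12 they numbered 74 and 23, against 24.7% and 25.3%, and between EB24 and EB12 87 and 12, against 30.2% and 12.8%. Between EB12 and EC12 they numbered 0 and 0, against 0.036% and 0%. In that fit 7 interactions were positive and 3 negative, against 5.54% and 1.68%.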
